A study of Homo sapiens with 12 samples.

Results

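Collagens, laminins and integrins form the extracellular scaffold and its receptors, and their transcripts were followed here in UM-UC-3, a line grown from a human bladder carcinoma. All probes whose gene symbol in the deposited raw table is a collagen chain (COL, a number, A, a number), a laminin chain (LAMA, LAMB or LAMC with a number) or an integrin subunit (ITGA or ITGB with a number or letter) were taken. These were 100 probes of 78 genes, out of 46713 probes with 24997 distinct symbols on the array. The collagens had 51 probes of 40 genes, the integrins 33 probes of 26 genes and the laminins 16 probes of 12 genes. A probe was tested for change if its detection p-value was under 0.05 on at least 3 of the 12 arrays, and 43 member probes of 39 genes passed.

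Cells received 1 of 4 reagents, each at 50 nM and for 72 h: a miR-101 precursor, a control precursor, an siRNA against EZH2, or a control siRNA. There were 3 arrays per group, and all groups were the same cell line, so that as far as the labels state they differ by the transfected RNA alone. The series title is about repression by miR-101 of EZH2, the enzyme of the Polycomb complexes that methylates histones. The transfections were done in triplicate and nothing in the labels says that they came from separate cultures, so the p-values rest on the spread among arrays of a group, which may be technical. The precursor groups were on 1 chip and the siRNA groups on the other. On each chip the controls held positions A to C and the treated cells D to F. Chip position and treatment therefore cannot be told apart within a chip, nor chip and reagent type between the chips.

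Collagens are triple helices of chains that assemble into fibrils, into the type IV network of basement membranes, or into smaller filaments. Laminins are crosses of an alpha, a beta and a gamma chain, and they polymerise beside the type IV network in the sheet on which the urothelium rests. Integrins are pairs of an alpha and a beta subunit in the plasma membrane, which bind these proteins and connect them through talin, kindlin and paxillin to the actin cytoskeleton. A microRNA lowers transcripts mainly by pairing of its seed with them, whereas EZH2 keeps genes silent through methylation of histone H3.

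The reagent's active strand and the promoters of the chain genes that the results turn on were read from RefSeq (GRCh38.p14). The mature miR-101 was read at chr9:4850345-4850365 on the plus strand, the first matching locus, and its seed, bases 2 to 8, is in capitals. The windows that follow hold 250 bases before and 50 bases after the annotated starts of the type IV collagen genes whose probes passed the detection filter. They are shown because these genes lie in head-to-head pairs, and the stretch that both windows of a pair share is in capitals.
hsa-miR-101-3p: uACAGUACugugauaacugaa
COL4A5, chrX:108439588-108439887, plus strand: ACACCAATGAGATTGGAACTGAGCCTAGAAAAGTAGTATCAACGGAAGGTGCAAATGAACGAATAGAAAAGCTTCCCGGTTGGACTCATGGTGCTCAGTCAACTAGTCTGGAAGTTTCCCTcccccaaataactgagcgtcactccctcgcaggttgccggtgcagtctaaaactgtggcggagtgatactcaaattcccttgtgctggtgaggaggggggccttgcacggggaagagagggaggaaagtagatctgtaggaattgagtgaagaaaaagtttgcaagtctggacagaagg
COL4A6, chrX:108439409-108439708, minus strand: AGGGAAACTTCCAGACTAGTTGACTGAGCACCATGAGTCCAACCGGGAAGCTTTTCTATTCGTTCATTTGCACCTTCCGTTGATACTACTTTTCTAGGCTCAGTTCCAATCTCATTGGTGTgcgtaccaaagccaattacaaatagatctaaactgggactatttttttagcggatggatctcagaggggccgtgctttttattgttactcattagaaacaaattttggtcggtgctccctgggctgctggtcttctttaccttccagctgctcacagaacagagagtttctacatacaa
COL4A1, chr13:110307108-110307407, minus strand: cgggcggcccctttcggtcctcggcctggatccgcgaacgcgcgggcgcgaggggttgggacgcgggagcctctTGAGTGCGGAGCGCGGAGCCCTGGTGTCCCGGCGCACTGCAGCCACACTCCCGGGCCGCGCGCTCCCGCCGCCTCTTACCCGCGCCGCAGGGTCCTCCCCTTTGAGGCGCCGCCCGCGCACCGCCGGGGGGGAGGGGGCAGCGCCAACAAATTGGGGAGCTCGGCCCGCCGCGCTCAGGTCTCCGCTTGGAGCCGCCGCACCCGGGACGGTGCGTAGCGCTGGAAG
COL4A2, chr13:110307034-110307333, plus strand: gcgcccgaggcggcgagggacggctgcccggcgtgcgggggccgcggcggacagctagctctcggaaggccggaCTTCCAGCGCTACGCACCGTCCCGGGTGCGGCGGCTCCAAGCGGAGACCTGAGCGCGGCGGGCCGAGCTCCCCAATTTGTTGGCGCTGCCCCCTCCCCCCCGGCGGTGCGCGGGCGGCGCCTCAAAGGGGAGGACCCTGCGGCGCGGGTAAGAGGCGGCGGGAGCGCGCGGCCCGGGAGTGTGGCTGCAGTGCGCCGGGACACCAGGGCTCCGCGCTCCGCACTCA

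The starts of COL4A5 and COL4A6 lie 380 bases apart and their windows share 121 bases, whereas those of COL4A1 and COL4A2 lie 127 bases apart and share 226. The COL4A5 and COL4A6 windows are 49.3% and 43.7% G and C with 8 and 7 CG dinucleotides, against a median of 58.7% and 14 over 35116 RefSeq promoter windows of the same length. The COL4A1 and COL4A2 windows are 76.7% and 77.7% G and C, with 45 CG dinucleotides each. Searched on both strands, the GC box GGGCGG was found at 2 places in the COL4A1 window and 1 in the COL4A2 window, and not in the other pair (45% of all windows hold it). The letters CCAAT stood at 2 places in the COL4A5 window, 3 in that of COL4A6 and 1 in each of the other windows (34.6% of all), and TATAAA in none of them (11.5% of all). Both CCAAT matches of the COL4A5 window lie in the stretch shared with COL4A6 and are 2 of its 3 matches. Likewise the GC box and the CCAAT of the COL4A2 window lie in its shared stretch and are also counted for COL4A1. The searched letters differ between motifs, and a letter match is a description of the window alone.

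Detection limited what could be followed. Between 15453 and 16377 probes were detected per array and 17844 entered the tests. The mean signal per array was 304 to 497. Of the 100 member probes 44 were detected on no array, and 26 were detected on all 12. Among the interstitial collagens COL1A1, COL1A2, COL2A1 and COL3A1 had no passing probe, nor had the basement membrane chains COL4A3 and COL4A4 or COL6A3. The other collagens without one were COL5A3, COL8A1, COL9A1, COL9A2, COL9A3, COL10A1, COL11A2, COL13A1, COL14A1, COL15A1, COL19A1, COL20A1, COL21A1, COL22A1 and COL24A1. Among laminins these were LAMA4, LAMB3 and LAMC3, and among integrins ITGA1, ITGA2B, ITGA4, ITGA6, ITGA7, ITGA8, ITGA9, ITGA11, ITGAD, ITGAL, ITGAM, ITGB6, ITGB7 and ITGB8. Some probes were bright and yet not called detected. A LAMB3 probe (ILMN_1092) read 158.8 to 315.4 intensity units and was detected on 0 arrays, and a further ITGB5 probe (ILMN_138555) read 559.3 to 1598 and was detected on 1. Both were left out by the filter. LAMB3 is therefore not shown to be silent, and ITGB5 was detected on all 12 arrays by its probe ILMN_24189.

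The targeted gene moved as the labels say. EZH2 (ILMN_25740) had a normalized log2 intensity of 7.86 ± 0.326 with miR-101 and 8.86 ± 0.128 with the control precursor (SD, n = 3 each; log2 change -1, adjusted p 6.52e-05). With EZH2 siRNA it was at 6.68 ± 0.289, against 8.65 ± 0.0186 with the control siRNA (log2 change -1.97, adjusted p 7.51e-07). The second EZH2 probe (ILMN_20896) changed by -0.87 with miR-101 and -1.4 with EZH2 siRNA. Of 14 urothelial markers 6 had a passing probe, among them the keratins KRT7, KRT8 and KRT18 and the factor FOXA1, whereas GATA3, KRT5, KRT13, KRT19, KRT20, UPK2 and UPK3A were detected on no array. Of the 7 passing urothelial probes 1 rose with miR-101, KRT8 (0.92, adjusted p 3.11e-05), and 2 fell, the uroplakin UPK1B (-0.41, 0.00725) and the nuclear receptor PPARG (-0.53, 0.000661). Of all probes tested 20.7% rose and 20.3% fell. With EZH2 siRNA KRT8 rose (0.54, 0.0201) and 0 fell, against 4.33% and 3.98% of all.

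With miR-101, transcripts were higher than with the control precursor for the basement membrane chains COL4A5, COL4A6, LAMA5, LAMB1 and LAMB2 and for the filament collagens COL6A1 and COL6A2. They were lower for COL4A1, COL11A1, LAMA1 and the laminin receptor subunit ITGA3. Of 43 member probes 12 rose, at adjusted p under 0.05, where 20.7% of all probes tested did, and 9 fell, where 20.3% of all did. The member shares, 27.9% and 20.9%, are close to that background. With a change of at least 1.5-fold as well, 11 member probes rose and 6 fell, against 12% and 11.3% of all probes. The rises were in 7 collagen, 3 laminin and 2 integrin probes, and the falls in 4 collagen, 2 laminin and 3 integrin probes. The median log2 change was 0.023 over the member probes and -0.024 over all probes, and the median size of change was 0.35 over the members and 0.269 over all. In bulk RNA fewer cells that express a gene and less RNA per cell cannot be told apart.

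The largest change was in COL4A5, a chain of the type IV network that pairs with the COL4A6 chain in some basement membranes. Its log2 intensity was 11.44, 11.43 and 11.33 on the miR-101 arrays and 8.88, 8.87 and 8.58 on the control precursor arrays. The EZH2 siRNA arrays read 9.63, 9.82 and 9.65 and the control siRNA arrays 9.26, 9.57 and 9.67. The miR-101 arrays were thus the highest of all 4 groups and overlapped with none, while both siRNA groups lay between them and the control precursor. The log2 change with miR-101 was 2.62 (SE 0.128, adjusted p 1.31e-10), which is 6.17-fold.

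COL4A6, whose promoter window overlaps that of COL4A5 above, is given in full for that reason, chosen after its values were seen. It had 7.42, 7.44 and 7.70 with miR-101 and 6.40, 6.44 and 6.34 with the control precursor. On the siRNA chip it stood at 6.29, 6.26 and 6.21 with EZH2 siRNA and at 6.35, 6.37 and 6.51 with the control siRNA. All miR-101 arrays lay above the other 9, with a log2 change of 1.13 (SE 0.109, adjusted p 2.7e-07). The probe was called detected on 1 of 3 control precursor arrays and on every other array. A second COL4A6 probe (ILMN_5674) was detected on 2 arrays, both of the miR-101 group, and did not pass the filter.

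The other head-to-head pair moved the other way or not detectably. COL4A1, a chain of the type IV network found in nearly all basement membranes, had 8.36, 8.02 and 8.25 with miR-101 and 9.04, 9.11 and 9.09 with the control precursor. It was at 9.06, 9.13 and 8.90 with EZH2 siRNA and 8.90, 8.94 and 8.87 with the control siRNA. The miR-101 arrays were the lowest of all 12 and the log2 change was -0.87 (SE 0.113, adjusted p 7.91e-06). Its partner chain COL4A2 changed by -0.25 (95% interval -0.59 to 0.09) and was not past the threshold (adjusted p 0.232).

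Among the laminin chains LAMB2, a beta chain known from glomerular and synaptic basement membranes, had the largest rise. It read 8.73, 8.80 and 9.45 with miR-101, against 7.53, 7.49 and 7.60 with the control precursor (log2 change 1.45, SE 0.168, adjusted p 2.21e-06). LAMA5, the alpha chain of the main laminins of adult epithelia, read 10.17, 9.94 and 10.46 with miR-101, against 8.90, 9.06 and 8.92 with the control precursor (1.23, SE 0.130, adjusted p 7.68e-07). LAMB1, the beta chain of many laminins including those of the embryo, read 8.23, 8.07 and 8.44 with miR-101, against 7.09, 6.93 and 7.04 with the control precursor (1.22, SE 0.147, adjusted p 3.24e-06). Genes were picked for array values on the condition that the groups do not overlap, which these 3 genes therefore met. The gamma chain LAMC1, with which they assemble, changed by 0.30 (95% interval 0.02 to 0.58) and missed the threshold (adjusted p 0.0822).
LAMA1, an alpha chain of the early embryo, went the other way on both of its probes. Probe ILMN_27530 read 5.76, 5.79 and 5.63 with miR-101, against 6.68, 6.34 and 6.47 with the control precursor (-0.77, SE 0.123, adjusted p 6.72e-05). Probe ILMN_138581 read 5.55, 5.25 and 5.52 with miR-101, against 6.20, 5.94 and 5.78 with the control precursor (-0.53, SE 0.130, adjusted p 0.00325). LAMA2 (0.02), LAMA3 (0.26) and LAMB4 (0.08), chains of muscle and epithelial laminins among them, were not past the threshold.

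**Figure D1:**
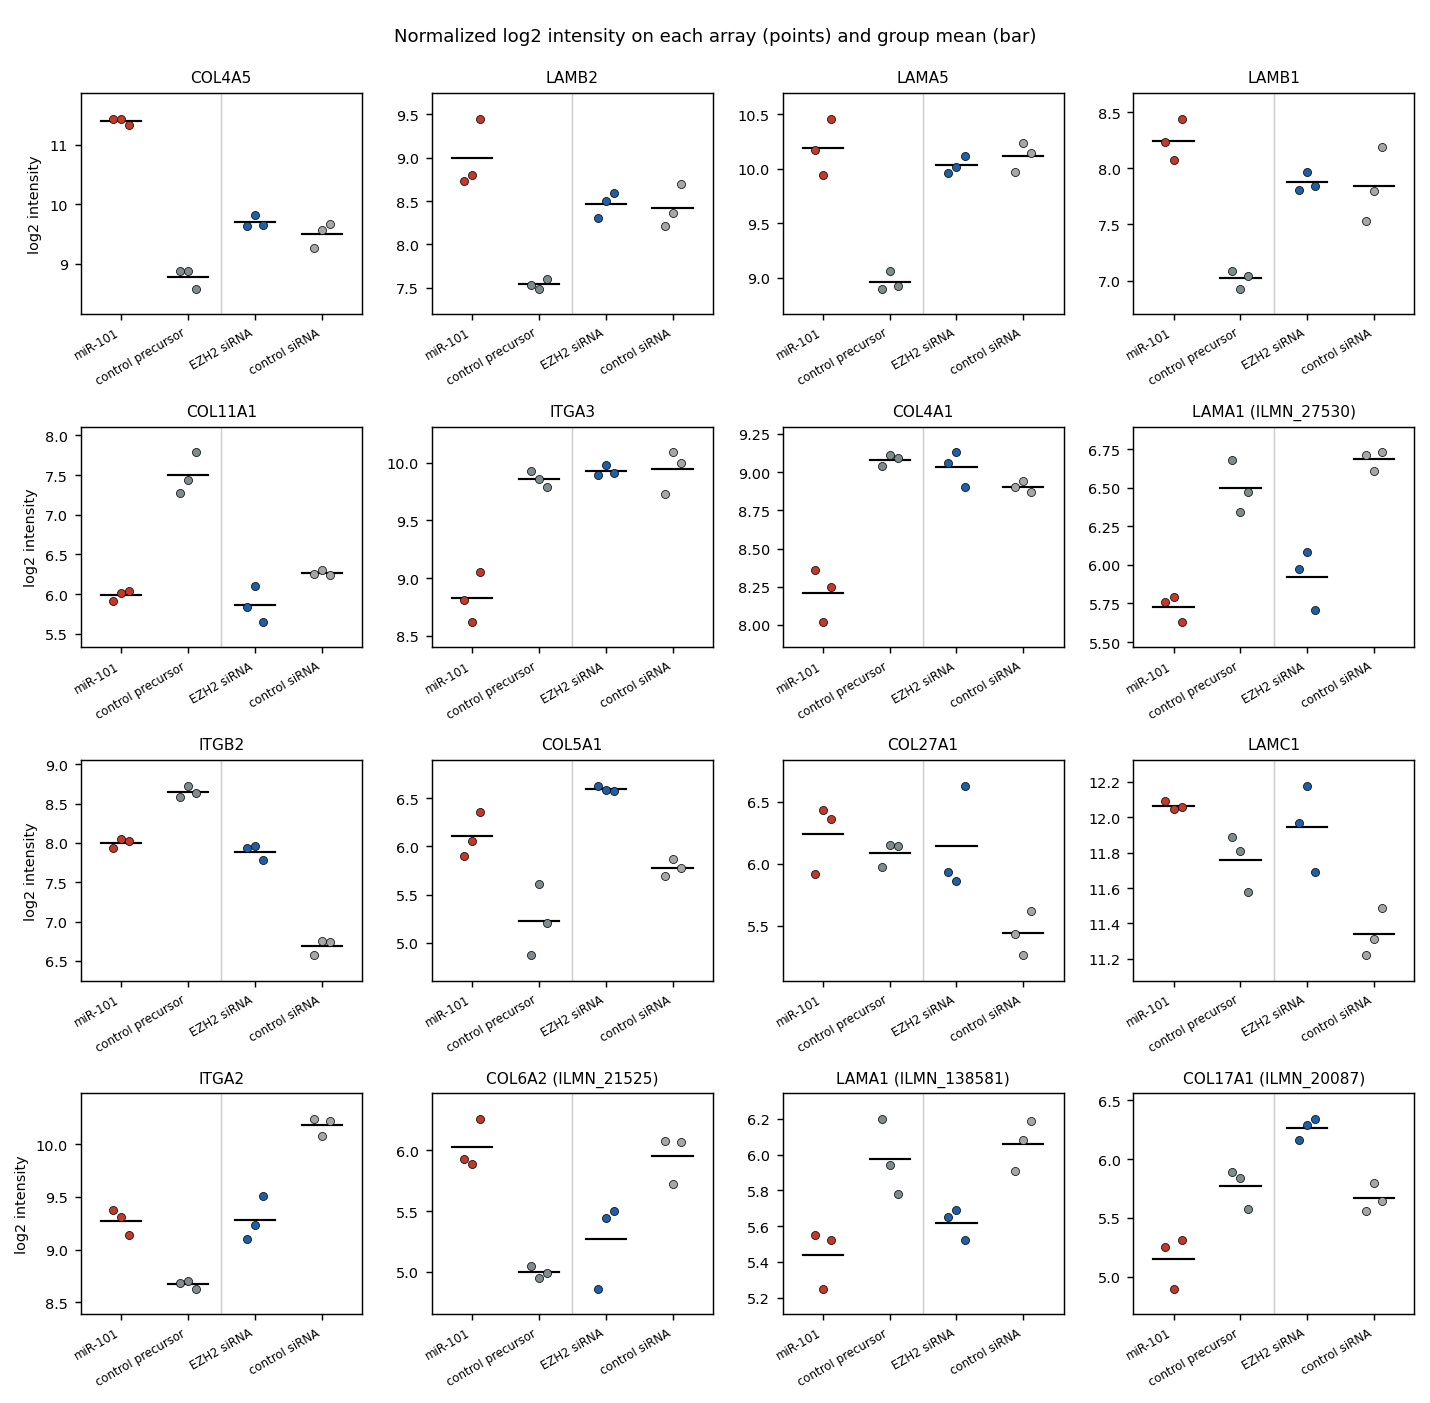
Normalized log2 intensity (y axis) of 16 collagen, laminin and integrin probes on each array of the 4 groups (x axis), 3 points per group, with the group mean as a bar; the grey line parts the precursor chip from the siRNA chip. COL4A5 with miR-101 stands at 11.33 to 11.44, above all other groups, and ITGA2 and ITGB2 differ more between the 2 controls than either treatment differs from its own.

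Fibrillar and filament collagens split. COL11A1, a minor fibril chain of cartilage that is also transcribed in tumour stroma, fell most of all members. It read 5.92, 6.02 and 6.04 with miR-101, against 7.27, 7.44 and 7.79 with the control precursor (-1.51, SE 0.139, adjusted p 1.51e-07). COL5A1 and COL5A2, the chains of type V collagen that nucleate fibrils, rose by 0.87 and 0.66 (adjusted p 0.000227 and 0.000924). The COL6A2 probe ILMN_21525 read 5.93, 5.89 and 6.26 with miR-101, against 5.05, 4.95 and 4.99 with the control precursor. Both probes of COL6A2, a chain of the beaded filaments around cells, rose by 1.03 and 0.77 (adjusted p 5.31e-05 and 0.000165), and COL6A1, a further chain of the same filaments, by 0.52 (0.0224). The COL6A2 probes were detected on no control precursor array, so their rises are given as detection bounds, 2.04-fold (ILMN_21525) and 1.62-fold (ILMN_28997). The same holds for COL5A2, 1.27-fold, and COL6A1, 1.21-fold, each detected on 2 of 3 miR-101 arrays. Such a bound starts from the mean of the bright group. On each dim array it sets against it the probe's own signal or the smallest signal called detected there, whichever is higher. It allows for detection alone, not for the spread among arrays or the choice of background. For ILMN_21525 it equals the fitted change, since the probe read above that smallest signal on every control precursor array. The 95% intervals of the log2 change reached down to 0.69 (ILMN_21525), 0.49 (ILMN_28997), 0.37 (COL5A2) and 0.16 (COL6A1). In the authors' normalized table these changes were 0.44, 0.33, 0.34 and 0.27. The COL6A1 groups overlapped.
COL12A1, a fibril-associated collagen of dense tissue, was 0.51 lower and one of the 2 probes of the hemidesmosomal collagen COL17A1 (ILMN_20087) 0.61 lower (adjusted p 0.00227 and 0.000978). The first of these COL17A1 probes read 5.25, 4.90 and 5.31 with miR-101, against 5.89, 5.84 and 5.58 with the control precursor. The other COL17A1 probe (ILMN_5067) changed by 0.22, short of the threshold (adjusted p 0.146), so the probes of that gene disagree. COL7A1 (-0.12), COL8A2 (-0.06), COL16A1 (-0.07), COL18A1 (-0.26), COL23A1 (-0.29), COL25A1 (0.00) and COL27A1 (0.15) were not past the threshold.

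Of the receptors, ITGA3, the alpha subunit of a laminin receptor of epithelia, fell. It read 8.81, 8.62 and 9.05 with miR-101, against 9.93, 9.86 and 9.79 with the control precursor (-1.03, SE 0.127, adjusted p 4.36e-06). The fibronectin receptor subunit ITGA5 rose by 0.59 (adjusted p 0.00346) and the collagen receptor subunit ITGA2 by 0.61 (0.000514). ITGA2 read 9.38, 9.31 and 9.14 with miR-101, against 8.68, 8.70 and 8.63 with the control precursor. The beta subunit of the leukocyte integrins, ITGB2, fell by 0.65 (8.65e-05), and ITGB3, which pairs with ITGAV, fell by 0.35 (0.0376). ITGB2 read 7.93, 8.05 and 8.02 with miR-101, against 8.59, 8.73 and 8.64 with the control precursor. Neither ITGA2 nor ITGB2 had overlapping groups. Both probes of ITGB1, the partner of ITGA2, ITGA3 and ITGA5, stayed within 0.23 (ILMN_11529) and 0.14 (ILMN_4738) and were not past the threshold (adjusted p 0.320 and 0.504). ITGAV (0.38), ITGAE (-0.27), ITGAX (0.01), ITGA10 (0.00), ITGB4 (-0.24) and ITGB5 (0.10) were not either, and the ITGB4 probe was detected on no miR-101 array. The calls of COL6A1 and ITGB3 were the least firm. COL6A1 lost its call when 1 array was left out, be it number 2 or 3 of the control precursor or number 1 or 3 of miR-101 (adjusted p up to 0.0930), and ITGB3 likewise with number 2 or 3 of the control precursor or any miR-101 array (up to 0.167). With median scaling of the arrays in place of quantile normalization COL6A1 (adjusted p 0.0599), ITGB3 (0.0770), ITGA2 (0.140) and ITGA5 (0.392) were not past the threshold. COL6A1 also missed it with an offset of 50 (0.0582), without the filter on dim probes (0.0827) and with the background SD that neqc infers (0.0862). ITGB3 also missed it without that filter (0.0632) and with only the 6 arrays of both groups in the fit (0.0547). In the authors' normalized table all 21 members were past it, but dim probes changed less, with COL4A6 at 0.74, COL11A1 at -0.94, COL5A1 at 0.39, COL6A2 at 0.44 (ILMN_21525) and LAMA1 at -0.4 (ILMN_27530). With the background SD that neqc infers they changed less again, with COL4A6 at 0.39, COL11A1 at -0.46, COL5A1 at 0.11, COL6A2 at 0.12, LAMA1 at -0.13 and LAMB1 at 0.72, so the size of these changes depends on the background.

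**Figure D2:**
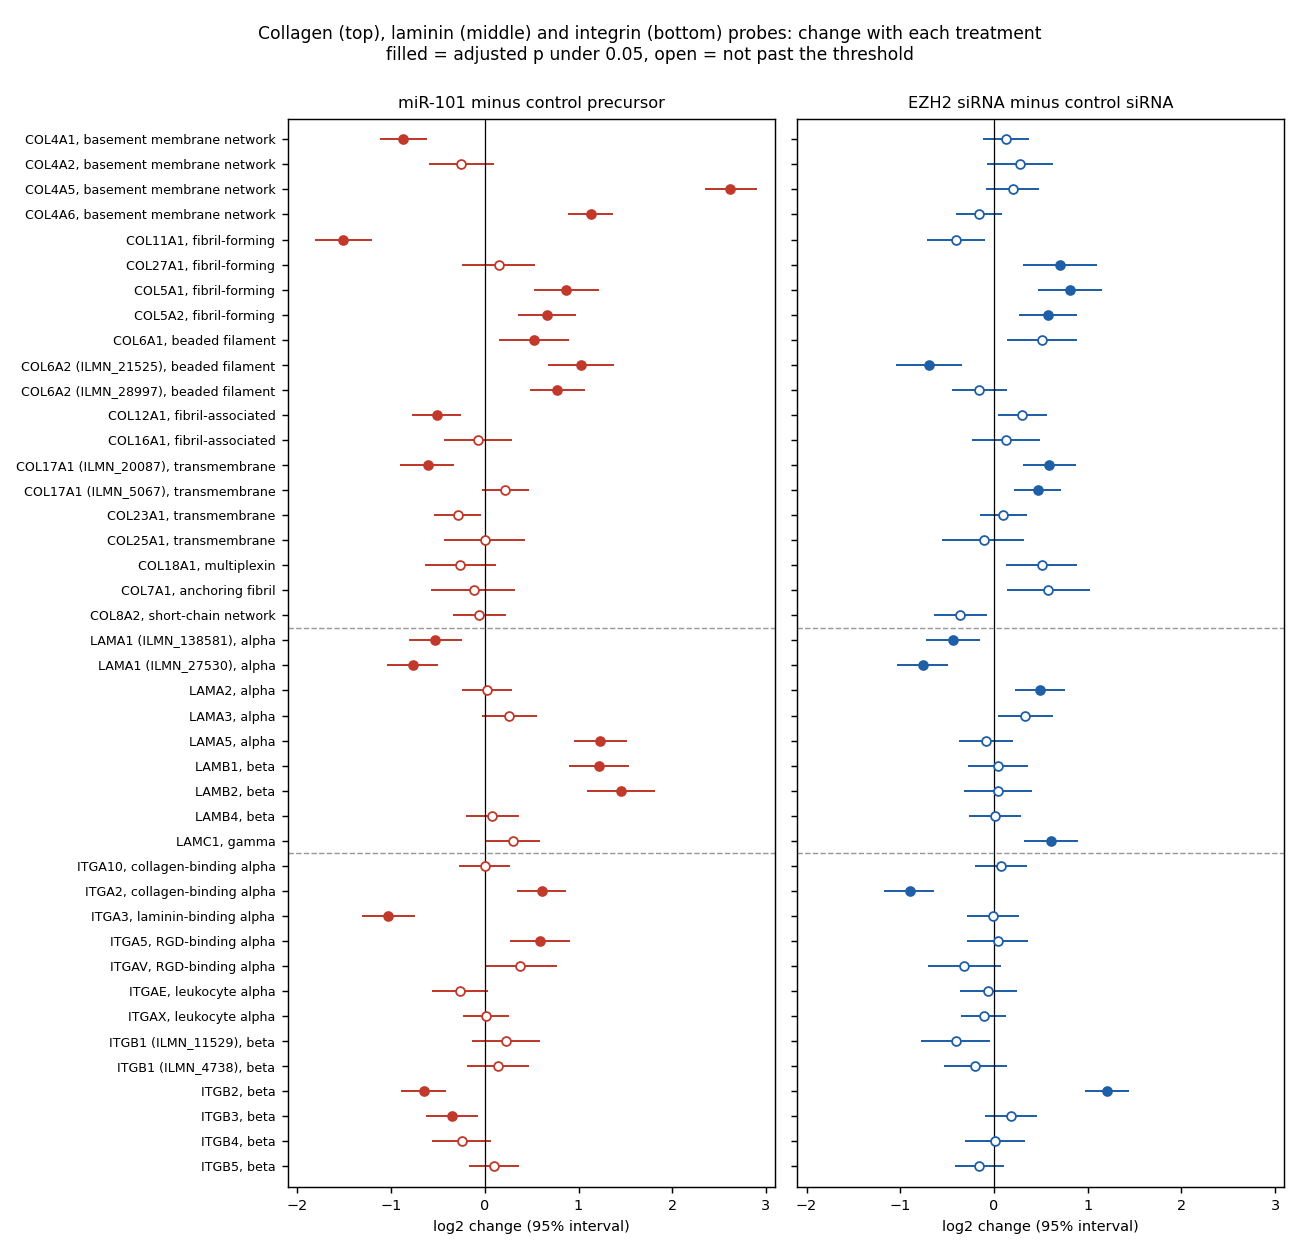
Log2 change (x axis) of the probes that passed detection and are named in the text (rows, with family class), with 95% intervals, for miR-101 minus control precursor on the left and EZH2 siRNA minus control siRNA on the right; filled points are past an adjusted p of 0.05. COL4A5 at 2.62 and COL11A1 at -1.51 are the extremes on the left and ITGB2 at 1.21 and ITGA2 at -0.90 on the right.

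With the siRNA against EZH2 fewer members differed from the control siRNA. The leukocyte integrin subunit ITGB2, the fibrillar chains COL5A1, COL5A2 and COL27A1, both COL17A1 probes and the laminin chains LAMC1 and LAMA2 were higher, and ITGA2, LAMA1 and 1 COL6A2 probe were lower. Of 43 member probes 8 rose, where 4.33% of all probes tested did, and 4 fell, where 3.98% of all did. The member shares were 18.6% and 9.3%. At 1.5-fold or more 5 rose and 3 fell, against 1.8% and 2.11% of all. The median log2 change was 0.041 over the members and 0.005 over all probes, and the median size of change 0.279 and 0.148. In place of these 12, 6 were past the threshold without control siRNA array 1 and 7 without control siRNA array 3. Median scaling left 4 (ITGB2, COL5A1, COL27A1 and ITGA2), and the background SD that neqc infers left 7, with COL5A2, COL27A1, LAMA2, LAMA1 probe ILMN_138581 and COL6A2 probe ILMN_21525 no longer past it. With that SD ITGB2 changed by 0.54, COL5A1 by 0.15, COL17A1 probe ILMN_20087 by 0.09 and LAMA1 probe ILMN_27530 by -0.15. In the authors' normalized table the changes of the dim probes were smaller, with COL5A1 at 0.43, COL27A1 at 0.33, COL17A1 probe ILMN_20087 at 0.29, COL6A2 probe ILMN_21525 at -0.3 and LAMA1 probe ILMN_27530 at -0.42, and LAMA2 (adjusted p 0.0585) and LAMA1 probe ILMN_138581 (0.0812) missed the threshold.

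ITGB2 had the largest change. It read 7.93, 7.96 and 7.78 with EZH2 siRNA, against 6.57, 6.75 and 6.74 with the control siRNA (log2 change 1.21, SE 0.107, adjusted p 2.23e-06). All treated arrays lay over 1 log2 unit above every control siRNA array. ITGA2 had the largest fall, with 9.10, 9.23 and 9.51 with EZH2 siRNA, against 10.24, 10.08 and 10.22 with the control siRNA (-0.90, SE 0.120, adjusted p 0.000115). The leukocyte markers CD14, CD3E and LYZ were detected on no array and PTPRC, the pan-leukocyte marker CD45, was at 0.06 with EZH2 siRNA (adjusted p 0.847), so the higher ITGB2 came with no higher leukocyte marker. CD68, the other marker with a passing probe, fell by 0.54 with EZH2 siRNA (adjusted p 0.00428). The summed signal of the list was 3556 to 4337 with EZH2 siRNA and 4724 to 5433 with the control siRNA.

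COL5A1 read 6.63, 6.58 and 6.57 with EZH2 siRNA, against 5.69, 5.87 and 5.78 with the control siRNA (0.81, SE 0.158, adjusted p 0.00349). COL27A1, a fibrillar chain of cartilage, read 5.93, 5.86 and 6.63 with EZH2 siRNA, against 5.43, 5.26 and 5.62 with the control siRNA (0.70, SE 0.181, adjusted p 0.0220). LAMC1, the gamma chain of most laminins, read 11.97, 12.18 and 11.69 with EZH2 siRNA, against 11.22, 11.31 and 11.49 with the control siRNA (0.61, SE 0.133, adjusted p 0.00796). The groups did not overlap for any of these genes, which was a condition for giving array values. COL27A1 had 1 treated array, replicate 3, well above the other 2.
COL5A2 rose by 0.58 (adjusted p 0.0146, detection bound 1.29-fold) and was detected on 1 of 3 EZH2 siRNA arrays and on no control siRNA array. LAMA2, the alpha chain of muscle laminin, rose by 0.49 (0.0169, detection bound 1.38-fold) and was detected on no control siRNA array. COL17A1, by its probe ILMN_20087, read 6.16, 6.29 and 6.34 with EZH2 siRNA, against 5.56, 5.80 and 5.64 with the control siRNA (0.59, SE 0.131, adjusted p 0.00833), and its probe ILMN_5067 rose by 0.47 (0.0172).

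LAMA1 fell on both probes with EZH2 siRNA too. Probe ILMN_27530 read 5.97, 6.08 and 5.71 with EZH2 siRNA, against 6.71, 6.61 and 6.73 with the control siRNA (-0.76, SE 0.123, adjusted p 0.000747). Probe ILMN_138581 read 5.65, 5.69 and 5.52 with EZH2 siRNA, against 5.91, 6.08 and 6.19 with the control siRNA (-0.44, SE 0.130, adjusted p 0.0464). A COL6A2 probe (ILMN_21525) read 4.86, 5.44 and 5.50 with EZH2 siRNA, against 6.08, 5.72 and 6.07 with the control siRNA (-0.69, SE 0.161, adjusted p 0.0113). Its other probe (ILMN_28997) changed by -0.16, short of the threshold (0.556), so the COL6A2 probes differ in their call.
With 1 array left out the LAMA1 probe ILMN_138581 lost its call for any siRNA array, for number 2 of the control precursor and for number 1 of miR-101 (adjusted p up to 0.187). COL27A1 lost it with number 1 or 2 of the control siRNA or number 3 of the EZH2 siRNA left out (up to 0.0994). COL5A2 and COL6A2 probe ILMN_21525 lost it with control siRNA array 1 or 3 or EZH2 siRNA array 1 left out (up to 0.0769 and 0.0667). COL17A1 probe ILMN_5067 and LAMA2 lost it with control siRNA array 1 or 3 or EZH2 siRNA array 3 left out (up to 0.0934 and 0.0751), COL17A1 also with EZH2 siRNA array 2 and LAMA2 with EZH2 siRNA array 1.

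The basement membrane chains that rose with miR-101 were not past the threshold with EZH2 siRNA against the control siRNA. The changes were COL4A5 at 0.20 (95% interval -0.07 to 0.47), COL4A6 at -0.16, LAMA5 at -0.09, LAMB1 at 0.04 and LAMB2 at 0.04. Against the control precursor, on the other chip, EZH2 siRNA cells were higher for COL4A5 (0.93, adjusted p 3.67e-05), LAMA5 (1.07, 9.94e-06), LAMB1 (0.85, 0.00032) and LAMB2 (0.92, 0.000541), but not for COL4A6 (-0.14, 0.384). Against the control siRNA the members COL4A1 (0.13), COL4A2 (0.28), COL6A1 (0.51), COL7A1 (0.58), COL8A2 (-0.36), COL11A1 (-0.40), COL12A1 (0.30), COL16A1 (0.13), COL18A1 (0.51), COL23A1 (0.10) and COL25A1 (-0.11) missed the threshold as well. So did LAMA3 (0.33) and LAMB4 (0.01), and the integrins ITGA3 (-0.01), ITGA5 (0.04), ITGA10 (0.08), ITGAE (-0.06), ITGAV (-0.32), ITGAX (-0.11), ITGB3 (0.18), ITGB4 (0.01) and ITGB5 (-0.16). The ITGB1 probes stood at -0.41 (ILMN_11529) and -0.20 (ILMN_4738).

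Set side by side, 4 member probes changed in the same direction with both treatments, COL5A1 and COL5A2 upwards and both LAMA1 probes downwards. COL5A2 was detected on 2 miR-101 arrays, 1 EZH2 siRNA array and no control array, so it passed the filter only through the groups where it is high and had to differ. Another 4 were past the threshold in opposite directions, namely ITGA2, ITGB2, COL6A2 probe ILMN_21525 and COL17A1 probe ILMN_20087. Of the rest 13 were past it with miR-101 alone, 4 with EZH2 siRNA alone and 18 with neither. These classes were counted for the members alone and not over all probes, so they only describe the members. The difference between the responses was tested for each probe, miR-101 response minus EZH2 siRNA response. It was past the threshold upwards for 9 members, where 15.6% of all probes were, and downwards for 9, where 14.9% were. Among them were COL4A5 at 2.42 (adjusted p 4.89e-08) and ITGA2 at 1.51 (3.65e-06) upwards, with ITGB2 at -1.86 (1.25e-07) and COL17A1 probe ILMN_20087 at -1.21 (8.7e-05) downwards. That COL17A1 probe is dim, and its difference was -0.55 in the authors' normalized table and -0.16 with the background SD that neqc infers. The brighter COL17A1 probe ILMN_5067 was at -0.25, not past the threshold (adjusted p 0.283), with changes of 0.22 with miR-101 and 0.47 with EZH2 siRNA. The fitted differences of the COL6A2 probes rest on a control precursor group in which they were not detected. For LAMA1 the difference was -0.01 (ILMN_27530) and -0.09 (ILMN_138581), and for COL5A1 0.06, none past the threshold (adjusted p 0.981, 0.762 and 0.867).

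The 2 controls were not alike, which bears on several of these members. The control siRNA, set against the control precursor, had 11 member probes higher, where 13.1% of all probes were, and 6 lower, where 13% were. As control siRNA minus control precursor, ITGB2 differed most, by -1.96 (adjusted p 2.03e-09), followed by ITGA2 at 1.51 (1.04e-07) and COL11A1 at -1.24 (4.98e-06). LAMA5 was 1.16 higher there (4.99e-06), LAMB2 0.88, LAMB1 0.82, COL4A5 0.72 and ITGB5 0.69. The COL6A2 probes were 0.96 and 0.81 higher, with detection bounds of 1.94-fold and 1.66-fold. COL5A1 (0.56), ITGB1 probe ILMN_11529 (0.54) and COL17A1 probe ILMN_5067 (0.37) were also higher. COL27A1 (-0.65), LAMC1 (-0.42), LAMA2 (-0.44, detection bound 1.33-fold) and ITGB3 (-0.36) were also lower. Without control siRNA array 2 the counts were 8 higher and 3 lower. These groups were on separate chips, so chip and reagent cannot be told apart.

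Each treatment was therefore also set against the other control, across the chips. With miR-101 minus control siRNA 10 member probes were higher (20% of all) and 10 lower (19% of all), and with EZH2 siRNA minus control precursor 13 were higher (13.7% of all) and 4 lower (12.6% of all). Of the 21 members past the threshold with miR-101, 11 were past it in the same direction against the control siRNA, 2 in the opposite direction and 8 were not past it. Neither this share nor that for EZH2 siRNA was counted over all probes. The same treated arrays enter both comparisons of a treatment. COL4A5 (1.9, adjusted p 6.13e-09), COL4A6 (1.11, 4.05e-07), ITGA3 (-1.11, 2.2e-06), COL4A1 (-0.69, 9.87e-05) and LAMA1 (-0.96 by ILMN_27530, 7.95e-06) stayed past it. LAMB2 (0.57) and LAMB1 (0.41) did so with smaller changes than against the control precursor. COL5A2 (0.58), LAMA1 probe ILMN_138581 (-0.62), COL12A1 (-0.53) and COL17A1 probe ILMN_20087 (-0.52) also stayed past it and changed about as much. LAMA5 (0.07), COL11A1 (-0.27), COL5A1 (0.32), COL6A1 (0.16), ITGA5 (0.24), ITGB3 (0.01) and both COL6A2 probes (0.07 and -0.03) did not stay past it.
ITGA2 turned to -0.90 (adjusted p 1.14e-05) and ITGB2 to 1.31 (4.86e-08) with miR-101 against the control siRNA. With EZH2 siRNA against the control precursor ITGA2 turned to 0.61 (0.00105) and ITGB2 to -0.76 (4.4e-05), so for both genes the treated groups lie between the controls and the direction rests on the control. Of the 12 members past the threshold with EZH2 siRNA 5 stayed past it in the same direction, COL5A1 (1.37), COL5A2 (0.67), both COL17A1 probes (0.49 and 0.84) and LAMA1 probe ILMN_27530 (-0.58). COL5A2 was detected on no array of either control and passed the filter through treated arrays alone. It therefore had to stay on the same side, in this count and in that for miR-101. COL27A1 (0.05), LAMA2 (0.05), LAMC1 (0.19), LAMA1 probe ILMN_138581 (-0.35) and COL6A2 probe ILMN_21525 (0.27) were no longer past it.

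**Figure D3:**
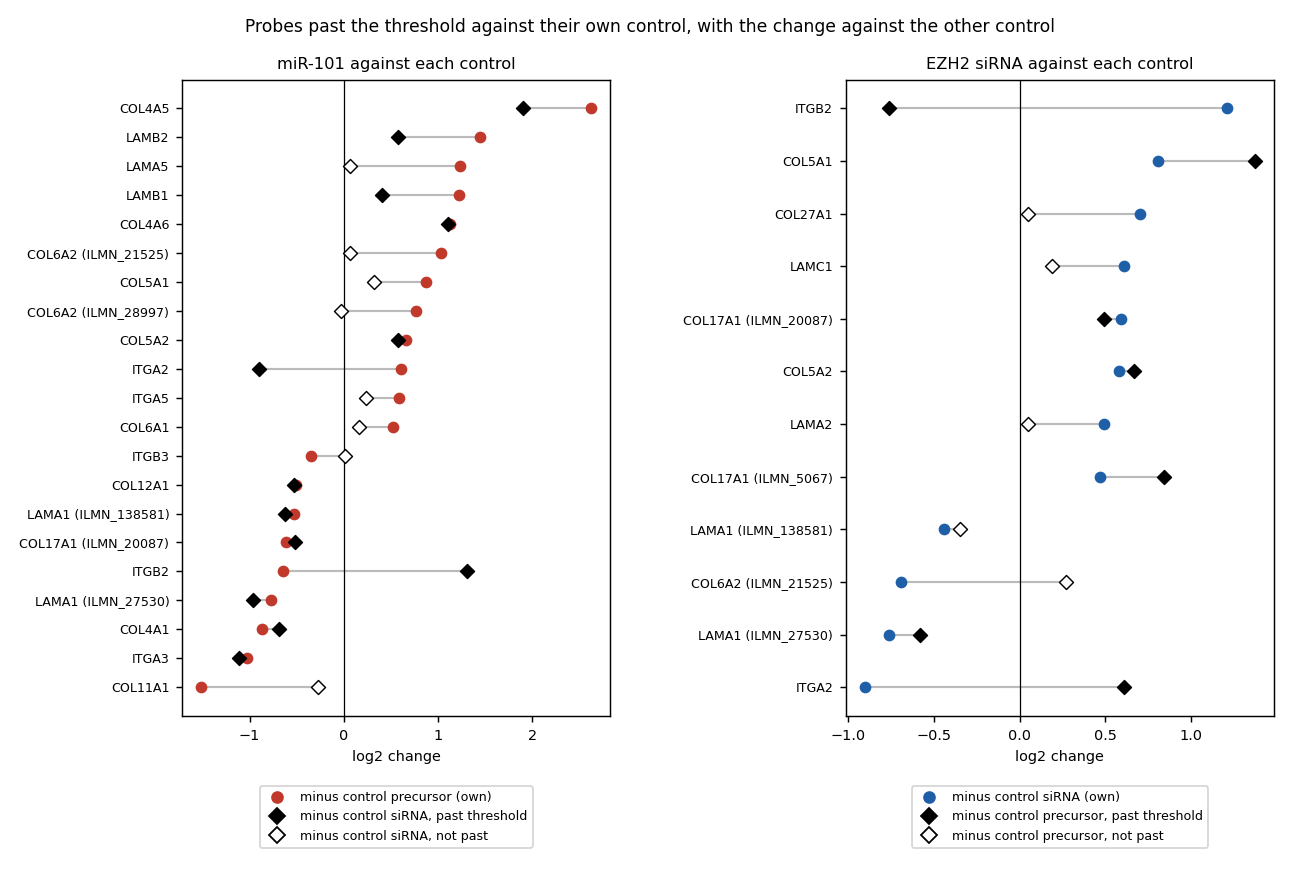
Log2 change (x axis) of each probe past the threshold (rows) with miR-101 on the left and EZH2 siRNA on the right, against the treatment's own control (circles) and against the other control (diamonds, filled where past an adjusted p of 0.05). COL4A5, COL4A6, ITGA3, COL4A1 and LAMA1 keep their side of 0 against both controls, while ITGA2 and ITGB2 cross it in both panels.

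The machinery around these proteins was counted in 4 lists. In the list of collagen assembly and processing enzymes 8 of 22 passing probes rose with miR-101 (20.7% of all probes tested). In that list 0 fell (20.3% of all), and the median log2 change was 0.25. Those that rose included the collagen prolyl 4-hydroxylase subunit P4HA2 (1.57, adjusted p 1.19e-08), the prolyl 3-hydroxylase P3H1 (1.5, 4.31e-08) and the lysyl hydroxylase PLOD1 (0.87, 1.09e-05). Between the controls 8 of the 22 were higher in the control siRNA (13.1% of all) and 0 lower (13% of all). There P4HA2 was at 0.94, P3H1 at 0.77 and PLOD1 at 0.86. With EZH2 siRNA 0 rose and 1 fell, SEC23A (-0.83, adjusted p 0.00957), a coat subunit of the vesicles that carry procollagen.

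Of 40 passing probes of integrin adhesion complex genes 17 fell, 7 rose and 16 did not pass the test with miR-101, with a median of -0.16. The scaffold paxillin (PXN) was at -1.54 (adjusted p 8.36e-08) and tensin 3 (TNS3) at -1.45 (2.44e-07), while the integrin activator talin 1 (TLN1) was at 1.44 (9.55e-07). Between the controls, as control siRNA minus control precursor, TNS3 was at -1.12 and TLN1 at 1.66. With EZH2 siRNA 4 fell and 0 rose, with the kindlin FERMT2 at -0.69 (adjusted p 0.000986), PXN at -0.60 (0.00963) and the actin regulator VASP at -0.96 (0.00967). All probes tested, the background for the counts of each list, had 20.7% higher and 20.3% lower with miR-101 and 4.33% and 3.98% with EZH2 siRNA.

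Of 8 passing probes of other basement membrane and matrix proteins 3 rose and 2 fell with miR-101, and 0 rose and 2 fell with EZH2 siRNA. The calcium-binding matrix protein SMOC1 was at 0.74 with miR-101 and -0.79 with EZH2 siRNA (adjusted p 0.000566 and 0.00249), and was itself 0.76 higher in the control siRNA than in the control precursor. For the elastic fibre protein FBLN1 the values come from different probes. ILMN_12209 was at -0.73 (0.000512) with miR-101 and was not among the 2 that fell with EZH2 siRNA, whereas ILMN_27273 was at -0.46 (0.0212) with EZH2 siRNA. The matricellular glycoprotein TNC was at 0.50 (0.00178) with miR-101. FN1, NID1, NID2, VTN and the thrombospondins THBS1 and THBS2 were among the 14 genes of that list detected on no array. Of 15 probes of other matrix receptors 2 rose and 3 fell with miR-101, and 1 rose and 2 fell with EZH2 siRNA. Dystroglycan (DAG1), a laminin receptor, was at -1.03 (3.45e-06) with miR-101, and the syndecans SDC1 and SDC4 at -0.83 and -0.86 (4.85e-06 and 1.8e-05). SDC1 was 0.95 higher in the control siRNA than in the control precursor. With EZH2 siRNA SDC4 was at -0.64 (0.00281), the hyaluronan receptor CD44 at -0.56 (0.0113) and the collagen receptor kinase DDR2 at 0.52 (0.0226).

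**Figure D4:**
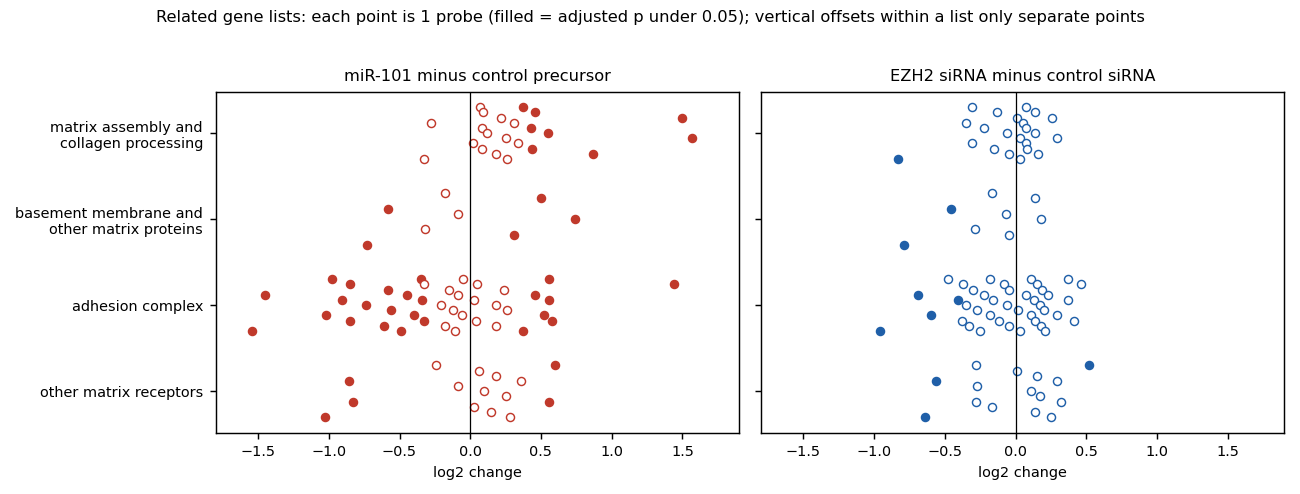
Log2 change (x axis) of each passing probe (points) of 4 lists of matrix and adhesion genes (rows) for miR-101 minus control precursor on the left and EZH2 siRNA minus control siRNA on the right, filled where past an adjusted p of 0.05. P4HA2 and P3H1 at 1.57 and 1.5 stand at the right end of the top list on the left, and PXN at -1.54 at the left end of the adhesion complex list.

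Markers of cells that make or hold these proteins in tissue were read beside them. Of 6 fibroblast markers FAP and PDGFRA were detected on no array and 3 had a passing probe, of which DCN rose by 0.78 and PDGFRB by 0.46 with miR-101 and PDGFRB by 0.50 with EZH2 siRNA. The summed signal of that list was 698 to 820 with miR-101, 670 to 780 with the control precursor, 748 to 862 with EZH2 siRNA and 719 to 818 with the control siRNA. Among the leukocyte markers CD68 rose by 0.96 with miR-101, where PTPRC was at -0.05, and the list summed to 4026 to 6792 with miR-101 and 3602 to 3971 with the control precursor. The endothelial list (CDH5 and VWF on no array) and the platelet list (GP9 and PF4 on no array) had 2 passing probes each and 0 past the threshold in either treatment. The endothelial sums were 399 to 468 with miR-101, 422 to 518 with the control precursor, 427 to 464 with EZH2 siRNA and 432 to 491 with the control siRNA. The platelet sums were 638 to 845 with miR-101, 803 to 836 with the control precursor, 684 to 792 with EZH2 siRNA and 675 to 780 with the control siRNA. The part of these markers in the collagen and integrin changes was not tested.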

How the data were processed

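RNA of UM-UC-3 cells in 4 groups was hybridised to 12 single-colour Illumina bead arrays. Per the file headers, the deposited raw table gives a bead signal in intensity units for each probe and array. No signal was below 49, so no background had been taken off. Beside each signal stands a detection p-value, per the file headers. Normalized intensity values in another table, deposited by the authors, served as an alternative. Per the submitters' processing notes BeadStudio was used, in a version that the sources used here do not give.

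Signals were corrected by limma 3.58.1 (R 4.3.3) under the normexp model, which took its background from the signals at given detection p-values. The plan was the neqc function, which infers a background SD of 103 to 192 intensity units. On each array 84 to 118 bright probes (signal above 200) are not called detected, and their part in that SD was not tested. After the data were seen the SD of neqc was replaced by an SD from quantiles, 8.35 to 10.6 units, since the larger SD compresses dim probes. With neqc as planned 11 members rose and 10 fell with miR-101, and 5 rose and 2 fell with EZH2 siRNA, and dim probes changed several times less (COL11A1 with miR-101 -0.46 in place of -1.51). An offset of 16, quantile normalization and log2 followed, which understates changes of dim probes. One limma model (lmFit, eBayes) with a mean for each group covered 17844 probes and all arrays, with 8 residual and 8.91 prior degrees of freedom. Its two-sided p-values were adjusted by the Benjamini-Hochberg method over all these probes. The code was tested on simulated data.

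The members and lists were chosen with earlier results of these data known. Every member with a passing probe was named, apart from a result that is not reported here. Array values were given, in each treatment, for the 4 largest rises and falls among called probes that were detected throughout at least 1 group and whose groups do not overlap, and for members called in opposite directions. Each list gave up to 3 called genes by smallest adjusted p. RefSeq accessions matched 91 of 100 member probes, all under the same symbol. Arrays of a group correlated at 0.99 to 0.997. Only 3 arrays a group limit the precision. The alternatives were the normalization, offset, filter, probe choice, array weights, variance prior, arrays in the fit, replicate block, control group, background SD and leaving out each array.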

Additional observations from a re-analysis of the deposited data

Results flagged for a closer look

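For 18 member probes the miR-101 response (miR-101 minus control precursor) and the EZH2 siRNA response (EZH2 siRNA minus control siRNA) differed past an adjusted p of 0.05, in a limma test of the difference itself. The difference was positive for COL4A5 (2.42, adjusted p 4.89e-08), COL6A2 (1.72 by ILMN_21525 and 0.93 by ILMN_28997), ITGA2 (1.51), LAMB2 (1.41), LAMA5 (1.32), COL4A6 (1.29), LAMB1 (1.19) and ITGAV (0.70, adjusted p 0.0429). It was negative for ITGB2 (-1.86, adjusted p 1.25e-07), COL17A1 probe ILMN_20087 (-1.21), COL11A1 (-1.11), ITGA3 (-1.02), COL4A1 (-1), COL12A1 (-0.81), COL18A1 (-0.77), ITGB3 (-0.53) and LAMA2 (-0.47). The fitted values of the COL6A2 probes rest on a control precursor group in which they were not detected. That of LAMA2 rests on a control siRNA group in which it was not detected. The LAMA2 difference missed the threshold under several settings. Among them were the authors' table (adjusted p 0.131), an offset of 50 (0.138) and the neqc SD (0.16). For some genes the treated groups were close and the controls apart. ITGA2 averaged 9.28 with miR-101 and 9.28 with EZH2 siRNA, ITGB2 8 and 7.89, LAMA5 10.2 and 10, and COL11A1 5.99 and 5.86, while control siRNA minus control precursor was 1.51 for ITGA2, -1.96 for ITGB2, 1.16 for LAMA5 and -1.24 for COL11A1. ITGAV and COL18A1 were past the threshold in neither treatment alone. Leaving out 1 array ended the call of COL18A1 for 6 of the arrays (adjusted p up to 0.0721), of ITGAV for 6 (up to 0.117), of ITGB3 for 7 (up to 0.0911) and of LAMA2 for 8 (up to 0.111). The groups of 3 arrays are too small for a test of single outlying arrays.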

How the results depend on the processing

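With median scaling the EZH2 siRNA calls were 294 probes in all and 4 members (3 higher, 1 lower), the control siRNA calls against the control precursor 1834 and 9 members (6 higher, 3 lower), and the calls of the difference between responses 3087. It moved the median of all probes to -0.11 with miR-101 and -0.17 for the difference, and the share of calls that were higher to 34.4% with miR-101 (50.4% otherwise), 65% with EZH2 siRNA (52.1%) and 26% for the difference (51.1%). Without a filter on dim probes, or with the background SD of neqc, an alternative added after seeing the data, 3 members were lower in the control siRNA; with the neqc SD 7 changed with EZH2 siRNA (5 higher, 2 lower). Array weights gave 3015 EZH2 siRNA calls with 13 members higher. Against the control precursor EZH2 siRNA had 4696 calls with 13 members higher.

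Of the settings tried, the other control alone turned a sign, for 7 calls. With miR-101 minus control siRNA these were ITGA2 (-0.9), ITGB2 (1.31), ITGB3 (0.01) and COL6A2 probe ILMN_28997 (-0.03), and with EZH2 siRNA minus control precursor ITGA2 (0.61), ITGB2 (-0.76) and COL6A2 probe ILMN_21525 (0.27). Members not called against their own control were called on the other side of 0, with miR-101 ITGB5 (-0.59) and ITGA10 (0.34), and with EZH2 siRNA LAMA5 (1.07), ITGB5 (0.53) and COL6A2 probe ILMN_28997 (0.65). The cause was not tested.

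Leaving out each array in turn gave 860 to 1696 EZH2 siRNA calls with 6 to 13 members (4 to 9 higher, 2 to 5 lower), the lowest member count without control siRNA array 1. It gave 19 to 23 members with miR-101, and 11 to 19 in the control siRNA against the control precursor (3 to 7 lower). No clear pairing of samples by replicate number was seen. Same-numbered deviations correlated at -0.05, 0.04 and 0.18 with miR-101 and -0.07, 0.19 and 0.01 with EZH2 siRNA. Those with different numbers correlated at -0.15 to 0.13 and -0.22 to 0.2. So few arrays cannot exclude a pairing. With a replicate block 22 members changed with miR-101 and 11 with EZH2 siRNA. Of 68 member calls 65 held in the authors' table and 62 with an offset of 50, both of which shrink dim probes, COL11A1 with miR-101 to -0.94 in the authors' table. Signal over background limits all probes near the lowest detected log2 intensity, 4.83 to 4.86.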
